A study of Mus musculus with 7 samples.

Results

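Cd44, Itga4, Itgal and Cxcr4 encode surface proteins with which blood stem cells hold to the marrow and find their way back to it. Their loci were followed in a bulk table of chromatin accessibility, in which each peak is a stretch of open DNA given by its mm9 position. A peak belonged to a locus when its midpoint lay in chr2:102600000-102800000 for Cd44, chr2:79060000-79190000 for Itga4, chr7:134410000-134500000 for Itgal and chr1:130430000-130560000 for Cxcr4. These windows held 45 of the 98723 peaks, namely 16 at Cd44, 7 at Itga4, 12 at Itgal and 10 at Cxcr4. The members were chosen by position among peaks that had been selected on the read density of the study's own sequencing data. That they are open is what put them in the table and is no finding. The sources used here do not say which libraries entered the peak calling. The bounds of the windows were not compared with those of the genes in mm9. The RefSeq gene table, which is of build GRCm38.p6 and was used for gene order only, has Slc1a2 and Pdhx beside Cd44, Ube2e3 and Cerkl beside Itga4, Sephs2 and Zfp768 beside Itgal, and Dars and Thsd7b beside Cxcr4. Exons, introns and promoters of build mm9 were not used here, so a peak is assigned to a window and not to a gene.

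CD44 is a receptor for hyaluronan, a sugar polymer of the marrow matrix, and carries glycans that bind selectins on vessel walls. Integrin alpha 4 pairs with beta 1 to bind VCAM-1 and fibronectin, and integrin alpha L pairs with beta 2 to form LFA-1, which binds ICAM molecules. CXCR4 is the receptor for the chemokine CXCL12, which marrow stromal cells release and which keeps stem cells in their niche. Transplanted stem cells depend on such molecules to enter and stay in the marrow.

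The assay, Omni-ATAC-seq, uses a transposase that cuts into open DNA and tags it for sequencing. Marrow enriched for cKit-positive cells came from C57BL/6 mice aged 24 months. It received a lentivirus that was either a control (4 libraries, numbered 1, 2, 3 and 4) or expressed the RUNX transcription factor Runx3 (3 libraries, numbered 1, 3 and 4). In both groups the cells were transplanted into lethally irradiated mice, and donor stem cells that carried the vector were sorted 16 weeks later as LSK, Flt3-, CD150+, CD48-, CD45.2+ and hCD2+. Both groups therefore share the age of the donors, infection, transplantation and recovery, and all cells measured had engrafted. The sources used here name neither the promoter that drives Runx3 in the vector nor the donors or recipients behind each library. The p-values measure only the spread between these libraries, which may be technical. The table carries no gene names, so the sorted cell type was not checked against marker genes.

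RUNX proteins bind DNA at a short core, TGTGGT, read as ACCACA on the other strand. The RefSeq promoter table, of build GRCm38.p6, had 3 of the 4 genes and had no entry for Itgal. The 250 bases before the annotated start of each are shown so that the place of this core can be seen. They are written 5′ to 3′ on the strand of the gene, with the RUNX core in capitals:

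Cd44: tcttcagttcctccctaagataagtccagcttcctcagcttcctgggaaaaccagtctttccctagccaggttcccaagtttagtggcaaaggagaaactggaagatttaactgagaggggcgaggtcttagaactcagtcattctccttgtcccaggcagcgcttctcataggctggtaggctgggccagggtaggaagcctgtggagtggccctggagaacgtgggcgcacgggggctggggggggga
Itga4: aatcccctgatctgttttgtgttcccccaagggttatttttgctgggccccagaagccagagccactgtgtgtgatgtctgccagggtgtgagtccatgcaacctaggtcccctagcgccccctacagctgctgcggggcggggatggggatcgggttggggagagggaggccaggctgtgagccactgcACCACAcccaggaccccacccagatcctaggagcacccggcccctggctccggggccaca
Cxcr4: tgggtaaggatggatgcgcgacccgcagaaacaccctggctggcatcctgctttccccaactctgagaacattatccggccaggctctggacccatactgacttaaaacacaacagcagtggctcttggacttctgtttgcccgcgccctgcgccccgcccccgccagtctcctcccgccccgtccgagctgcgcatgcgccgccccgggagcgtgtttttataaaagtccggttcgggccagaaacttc

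In GRCm38.p6 these lie at chr2:102901666-102901915 on the minus strand for Cd44, chr2:79255176-79255425 on the plus strand for Itga4 and chr1:128592300-128592549 on the minus strand for Cxcr4. The Itga4 stretch holds 1 core, as ACCACA, whose first base lies 60 bases before the annotated start. The Cd44 and Cxcr4 stretches hold 0. Of all 32851 promoter entries, 14.0% hold the core on either strand in the same 250 bases. G and C make up 56.4% of the Cd44 stretch, 64.0% of the Itga4 stretch and 61.2% of the Cxcr4 stretch, against a median of 52.4% over all entries. A match is a description of letters and not a binding site, and no peak was placed on these sequences because the peak table uses another build.

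Accessibility is given as CPM, the reads of a peak scaled to a common library size by TMM, and as the mean ± SD over libraries of a group. Libraries held between 1738164 and 3758422 reads in peaks, with the Runx3 libraries the shallower on average. The 45 peaks held between 803 and 1971 reads per library. That was 0.0505%, 0.0542%, 0.0519% and 0.0524% of the reads of control libraries 1 to 4, and 0.0462%, 0.0473% and 0.0476% of those of Runx3 libraries 1, 3 and 4. Every Runx3 library thus had a smaller share of its reads in the 4 windows than every control. The table has 2 library sets that cut across the groups. Between control 1, control 2 and Runx3 1 and the other 4 libraries, 57 of the 98723 peaks were at least 8-fold apart, in either direction. Values within each set, the one with control 1 first, are given beside the main differences between the groups.

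The windows differ in how their open DNA is laid out. Itgal was the densest, with 13.3 peaks per 100 kb, followed by Cd44 with 8.0, Cxcr4 with 7.69 and Itga4 with 5.38. At Itga4 a single broad peak of 1519 bases, at 79094798 to 79096317, held 56.8% of the accessibility of the window. The most accessible peak held 36.6% at Itgal, where it lay at 134488698 to 134490027, and 35.4% at Cxcr4, where it lay at 130511117 to 130512353. At Cd44 accessibility was spread more evenly, and the most accessible peak, at 102740978 to 102742012, held 22.1%. These leading peaks ranked at the 95.5th, 93.4th, 93.4th and 85.6th percentile of all tested peaks by level, in the order named here.

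**Figure D1:**
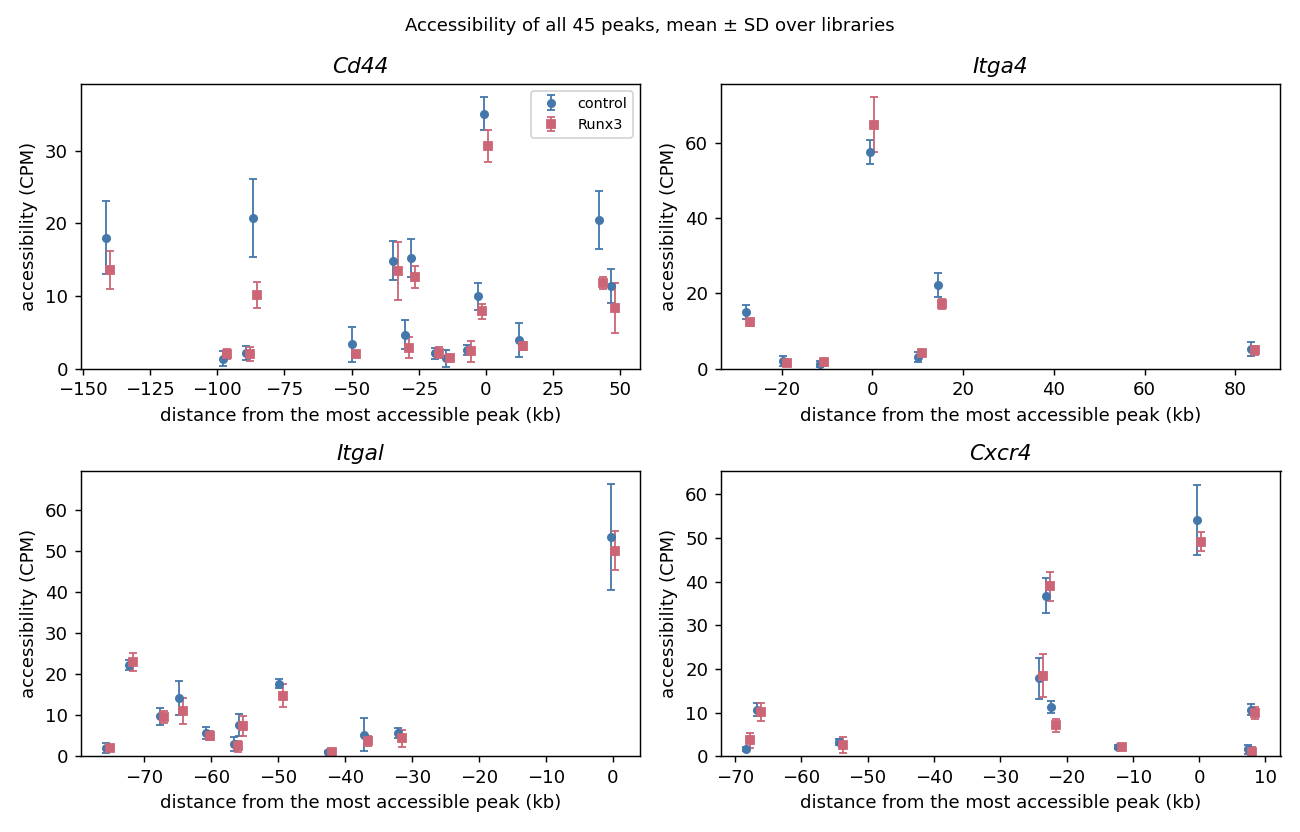
Each point is a peak, placed by its distance in kb from the most accessible peak of its window (x axis) and its accessibility in CPM (y axis), with circles for the mean of 4 control libraries, squares for the mean of 3 Runx3 libraries and bars for the SD. All 45 peaks are drawn. At Itga4 the leading peak stands at 57.4 CPM in controls, far above its neighbours, while at Cd44 several peaks of 10 to 21 CPM surround a leading peak of 35.1 CPM.

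Of the 45 peaks, 28 had enough reads to be tested, namely 9 at Cd44, 4 at Itga4, 9 at Itgal and 6 at Cxcr4. The other 17 had at most 19 reads in any library and a mean of at most 3.61 CPM. A count of 3 reads corresponds to between 0.863 and 1.87 CPM, so single values of these weak peaks are poorly read. The 28 tested peaks had a median level of 14.0 CPM against 9.48 CPM for all tested peaks, and 19.8 against 18.2 CPM per kb of peak width.

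None of the 28 passed the test for a difference between Runx3 and control libraries. The counts were 0 higher and 0 lower at an adjusted p under 0.05 (edgeR quasi-likelihood test, adjusted over 57504 peaks), where 0.0330% of all tested peaks were called higher and 0.0400% lower, or 0.0730% in either direction. That background rests on single libraries: leaving out 1 gave from 0 higher and 0 lower calls over all peaks, without control 2 or without Runx3 1, to 73 and 194, without control 1. The counts were 4 and 1 without control 3, 37 and 25 without control 4, 28 and 4 without Runx3 3, and 5 and 2 without Runx3 4. DESeq2 and limma-voom called 0 and 0 of the members, and over all peaks they called 2 and 1, and 5 and 0. At an unadjusted p under 0.05 edgeR had 0 higher and 3 lower, DESeq2 0 and 2, and limma-voom 0 and 3. For all tested peaks the shares at that level were 3.91% higher and 4.40% lower in edgeR. The shares lower were 1.59% in DESeq2, where all 45 members had a p, and 3.45% in limma-voom. The shares higher in these 2 tools are not given here. The estimates nonetheless leaned to lower values. Of the 28 log2 fold changes 23 were below 0, where 51.2% of all tested peaks were, and their median was -0.23 against -0.01 for all. In 5 of the 28 every Runx3 library lay below every control, 2 each at Cd44 and Itga4 and 1 at Cxcr4, and in 0 above. For all tested peaks these shares were 4.58% and 4.36%. Neighbouring peaks share libraries and a scaling factor, so these counts are a description.

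Cd44 was the locus where the groups lay farthest apart. The accessibility of its 16 peaks summed to 156, 181, 167 and 165 CPM in control libraries 1 to 4 and to 124, 122 and 134 CPM in Runx3 libraries 1, 3 and 4. All Runx3 libraries were below all controls, with means of 127 ± 6.64 (SD, n = 3) and 167 ± 10.2 (SD, n = 4), a log2 ratio of -0.40. The ratio was -0.45 within the set of control 1, control 2 and Runx3 1 and -0.37 within the other. Since the libraries are bulk samples, a lower level in every cell and a smaller share of cells with the site open cannot be told apart. The sum was not tested, because it runs over chosen members.

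The stretches beside the window, looked at after its values were seen, did not show this separation. In the 200 kb before it, 6 peaks summed to 53.3 ± 10.5 CPM in controls (SD, n = 4) and 55.3 ± 0.380 CPM with Runx3 (SD, n = 3). Only 3 of these 6 had enough reads to be tested. In the 200 kb after it, 16 peaks summed to 141 ± 8.70 and 136 ± 5.54 CPM. The difference between the window and these stretches was not tested. Beside the other windows, stretches as wide as each window had log2 ratios from -0.22, after Cxcr4, to 0.14, before Itga4.

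All 9 tested peaks of Cd44 had a log2 fold change below 0, from -0.98 to -0.15 with a median of -0.43. Without Runx3 3 the median was -0.25 and 8 of the 9 were below 0. The smallest p was at 102655293 to 102656081, -85.8 kb from the leading peak. It had 24.8, 23.8, 21.5 and 12.9 CPM in controls 1 to 4 and 8.11, 11.0 and 11.3 CPM in Runx3 1, 3 and 4. Control 4 lay just above the Runx3 libraries and the other controls well above them. The peak was 1.97-fold lower with Runx3, or -0.98 ± 0.23 on the log2 scale (SE), and did not pass (edgeR adjusted p = 0.10). It passed without control 4 (edgeR adjusted p = 0.020) and with library depth, the total count, added to the fit (0.047), in a range of 0.020 to 0.78 over the settings tried, where 0.78 was from DESeq2. Within the library sets the log2 ratio was -1.58 and -0.63.

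The other Cd44 peak with a small p lay on the opposite side, at 102784119 to 102784681, 42.9 kb from the leading peak. Controls 1 to 4 had 16.5, 17.5, 24.4 and 23.3 CPM, and Runx3 1, 3 and 4 had 11.9, 12.6 and 10.9 CPM. The groups did not overlap, and the Runx3 libraries lay close together. The log2 fold change was -0.82 ± 0.21 (SE), or 1.76-fold lower (edgeR adjusted p = 0.14). Its 2 library sets gave -0.52 and -1.02. Without control 1 it passed (edgeR adjusted p = 0.018, in a range of 0.018 to 1 over settings), and with library depth added to the fit its log2 value was -0.52 (adjusted p = 0.52). The controls with the higher levels, 3 and 4, are also the most deeply read libraries, and the part of depth in this difference was not tested beyond that fit.

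The leading peak of Cd44 differed less. It had 32.0, 36.2, 37.3 and 34.8 CPM in controls and 28.1, 31.6 and 32.2 CPM with Runx3, so that Runx3 4 reached just above control 1. Its log2 fold change was -0.19 ± 0.15 (SE, edgeR adjusted p = 0.79). The leading peak therefore took a larger share of the window in Runx3 libraries, 24.2% ± 1.58 (SD, n = 3) against 21.0% ± 0.979 (SD, n = 4). The remaining tested peaks of Cd44 had log2 fold changes between -0.60 and -0.15, with overlapping groups. Without both peaks of small p, a setting chosen after the data were seen, the summed log2 ratio of the window was -0.27.

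**Figure D2:**
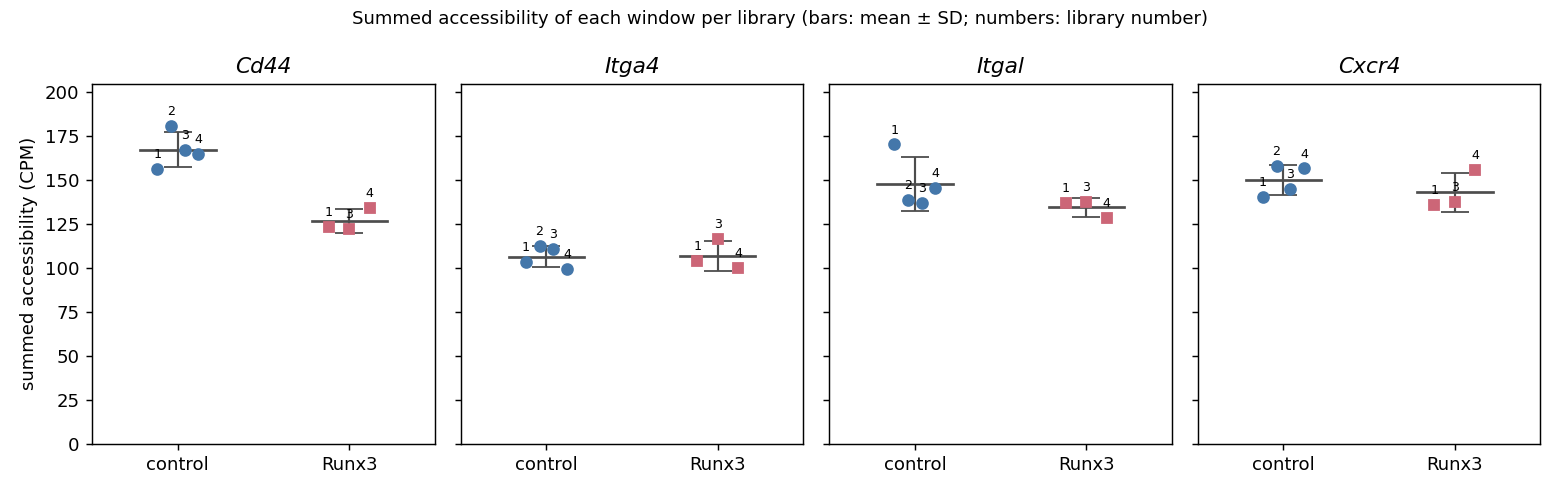
Summed accessibility in CPM (y axis, from 0) of all peaks of a window, with each point a library labelled by its number, the line the group mean and the bar the SD. The Runx3 libraries lie below the controls at Cd44 (122 to 134 against 156 to 181 CPM) and overlap them at the other loci.

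The integrin alpha 4 locus had nearly the same summed level in both groups. Its leading peak took a larger share of the window in Runx3 libraries, as at Cd44, and this was not tested. Itgal and Cxcr4 did not share this separation. There the leading peak held 35.8% ± 4.69 and 35.9% ± 3.41 in controls (SD, n = 4). With Runx3 it held 37.2% ± 2.46 and 34.5% ± 2.94 (SD, n = 3). The Itga4 window summed to 103, 113, 111 and 99.5 CPM in controls 1 to 4 and 104, 116 and 100.3 CPM in Runx3 1, 3 and 4, a log2 ratio of 0.01 (-0.05 and 0.04 within the sets). The broad leading peak had 53.7, 61.1, 58.5 and 56.4 CPM in controls and 62.4, 72.9 and 59.0 CPM with Runx3. Runx3 4 lay below control 2, and the other Runx3 libraries lay above every control. Its log2 fold change was 0.18 ± 0.12 (SE, edgeR adjusted p = 0.76), the highest of the 28. It was 0.07 without Runx3 3, the library with the highest level, and 0.12 and 0.20 within the sets.

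The next tested peaks on either side had estimates below 0. At 79110187 to 79110908, on the side of higher coordinates, controls had 20.7, 24.9, 24.7 and 18.7 CPM and Runx3 libraries 17.5, 18.6 and 15.9 CPM. Runx3 3 was only just below control 4. The log2 fold change was -0.36 ± 0.19 (SE, edgeR adjusted p = 0.63), and -0.38 and -0.33 within the sets. At 79067846 to 79068635, -27.3 kb from the leading peak, controls had 15.5, 13.6, 17.5 and 13.5 CPM and Runx3 libraries 12.5, 13.1 and 11.3 CPM, and the estimate was -0.29 ± 0.22 on the log2 scale (SE, edgeR adjusted p = 0.79), and -0.22 and -0.34 within the sets. Weaker peaks that were not tested lie between, and those at 79105869 and 79084291 were on average higher with Runx3, at 4.16 ± 0.451 against 3.11 ± 1.38 CPM and 1.86 ± 0.616 against 1.37 ± 0.833 CPM (SD, n = 3 and n = 4). That at 79076245 was on average lower with Runx3, at 1.58 ± 0.298 against 2.08 ± 1.23 CPM (SD, n = 3 and n = 4).

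The leading peak held 52.0%, 54.3%, 52.8% and 56.6% of the window in controls 1 to 4 and 59.9%, 62.7% and 58.8% in Runx3 1, 3 and 4. These shares did not overlap, with means of 53.9% ± 2.05 (SD, n = 4) and 60.5% ± 1.99 (SD, n = 3). Within the sets they were 53.2% against 59.9% and 54.7% against 60.8%. They were singled out after the values were seen and were not tested. Without the leading peak the summed log2 ratio of the window was -0.22. The weakest tested peak, at 79179192 to 79179767, had 5.30 ± 1.83 CPM in controls (SD, n = 4) and 4.98 ± 1.19 CPM with Runx3 (SD, n = 3).

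**Figure D3:**
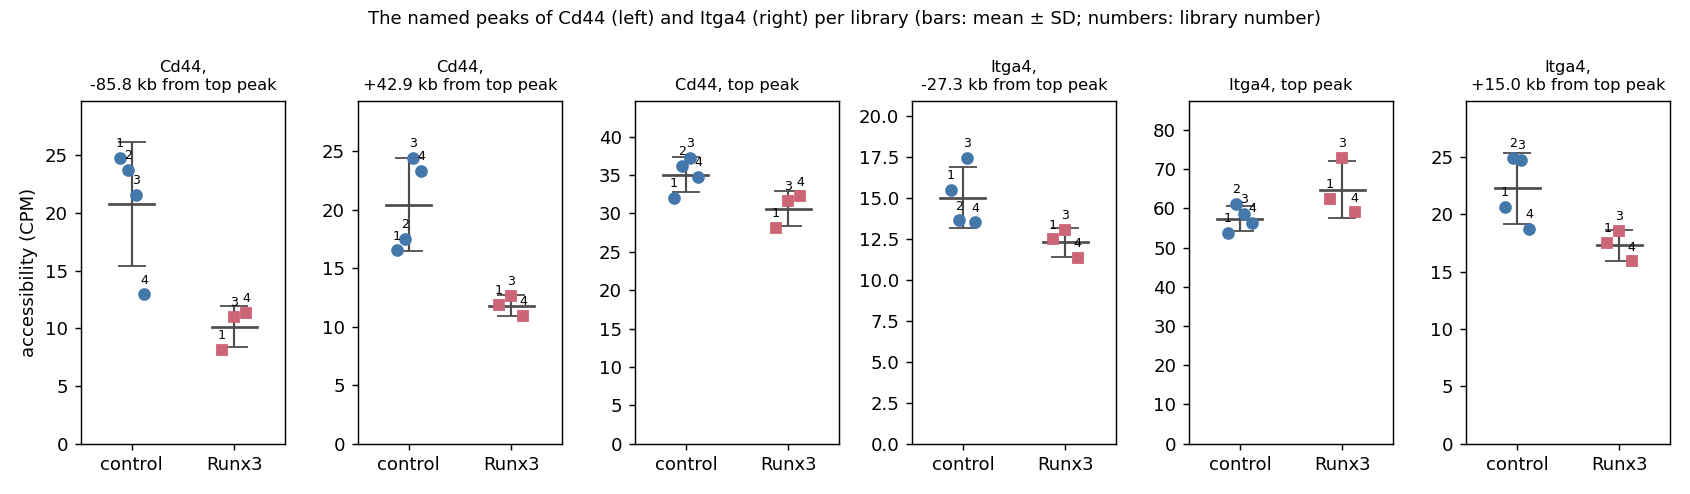
Accessibility in CPM (y axes, each from 0 with its own range) of 3 Cd44 peaks and 3 Itga4 peaks in each library, labelled by library number, with the mean as a line and the SD as a bar. The first 2 Cd44 peaks are lower in every Runx3 library than in any control. At Itga4 the leading peak runs from 59.0 to 72.9 CPM with Runx3 and from 53.7 to 61.1 CPM in controls, and the other 2 peaks drawn are lower in every Runx3 library than in any control.

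At Itgal the groups overlapped in the sum and in every tested peak. The window summed to 170, 139, 137 and 145 CPM in controls 1 to 4 and 137, 138 and 128 CPM in Runx3 1, 3 and 4, a log2 ratio of -0.14 (-0.17 and -0.09 within the sets, and -0.06 without control 1). Control 1 was the highest, and this came mainly from the leading peak, which had 72.3 CPM in control 1, 43.6, 46.9 and 50.9 CPM in the other controls and 49.3, 55.2 and 45.8 CPM with Runx3. Its log2 fold change was -0.07 ± 0.14 (SE, edgeR adjusted p = 0.96), and it was 0.09 without control 1, so its direction rests on that library.

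The next peaks of Itgal by level were close between the groups. At 134416895 to 134417962 accessibility was 22.3 ± 1.30 CPM in controls (SD, n = 4) and 23.0 ± 2.14 CPM with Runx3 (SD, n = 3). The peak at 134439333 to 134440329 had 17.7 ± 1.03 and 14.8 ± 2.76 CPM, and Runx3 4 lay within the controls. The smallest p of the window was at 134424592 to 134425037, with 8.26, 17.5, 14.6 and 16.4 CPM in controls and 13.1, 12.6 and 7.26 CPM with Runx3. Control 1 was low there and lay among the Runx3 libraries. The log2 fold change was -0.42 ± 0.25 (SE, edgeR adjusted p = 0.70). It was -0.17 without Runx3 4, and 0.02 and -0.64 within the sets. The 9 tested peaks ran from -0.45 to 0.06, with 7 below 0.

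At Cxcr4, the chemokine receptor, the 3 most accessible peaks differed between groups by less than the SD of the control libraries. The window summed to 140, 158, 145 and 157 CPM in controls 1 to 4 and 136, 137 and 156 CPM in Runx3 1, 3 and 4, a log2 ratio of -0.07 (-0.13 and -0.04 within the sets). The leading peak had 44.4, 60.0, 50.6 and 61.5 CPM in controls and 51.2, 46.8 and 49.5 CPM with Runx3 (log2 fold change -0.15 ± 0.13 SE, edgeR adjusted p = 0.83). Another 3 peaks lie side by side, at -23.9, -22.9 and -22.0 kb from it. The strongest of them, at 130488330 to 130489414, had 36.8 ± 4.04 CPM in controls (SD, n = 4) and 38.9 ± 3.30 CPM with Runx3 (SD, n = 3). Its neighbour at 130487395 to 130488283 had 17.9 ± 4.67 and 18.5 ± 4.87 CPM.

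The third of these peaks, at 130489519 to 130490015, had the smallest p of the window. Controls 1 to 4 had 11.4, 12.9, 9.31 and 11.5 CPM, and Runx3 1, 3 and 4 had 5.61, 7.17 and 8.62 CPM. The groups did not overlap, with Runx3 4 near control 3. The log2 fold change was -0.62 ± 0.26 (SE), or 1.54-fold lower, and did not pass (edgeR adjusted p = 0.49). Within the library sets the log2 ratio was -1.11 and -0.40.

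**Figure D4:**
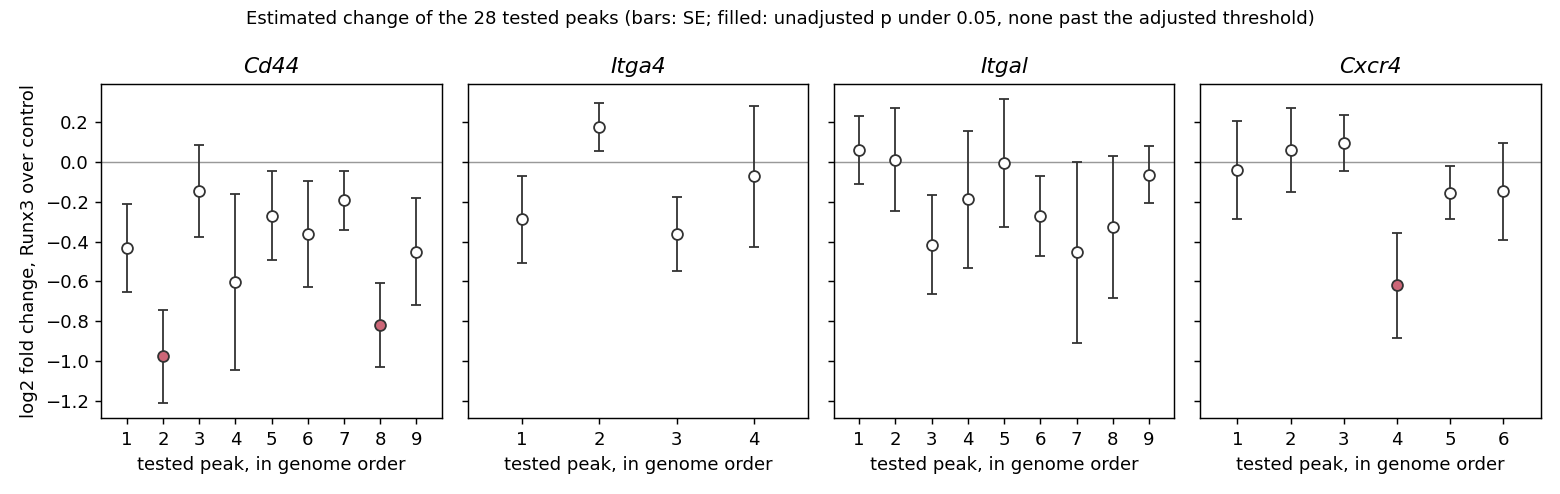
Log2 fold change of Runx3 over control libraries (y axis) for the 28 tested peaks, in genome order along each window (x axis), with bars for the SE and filled points for an unadjusted p under 0.05. At Cd44 all 9 points lie below 0, from -0.98 to -0.15, and at the other loci the points lie on either side of 0.

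Set per kb of peak, the loci were near each other in controls. Itga4 had 24.2 ± 1.41 CPM per kb, Itgal 23.7 ± 2.47, Cxcr4 23.5 ± 1.36 and Cd44 21.0 ± 1.28 (SD, n = 4). The first 3 differed by less than their spread, and Cd44 lay below Cxcr4 by more than the SD of either, with libraries that overlapped. In the Runx3 libraries the order was Itga4 at 24.3 ± 1.90, Cxcr4 at 22.4 ± 1.72, Itgal at 21.6 ± 0.845 and Cd44 at 15.9 ± 0.831 (SD, n = 3). Cd44 was the lowest in 6 of the 7 libraries. Its distance to the next locus was wider with Runx3 than in controls, and this was not tested. Across the 7 libraries the log2 sums of pairs of loci had a Pearson correlation between -0.30 for Itga4 with Cxcr4 and 0.63 for Cd44 with Cxcr4. These 7 points share their scaling factors and hold both groups, and the values are a description.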

How the data were processed

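Omni-ATAC-seq was run on 7 libraries of sorted mouse stem cells, 4 control and 3 Runx3. The authors deposited a table of raw, unscaled read counts for 98723 peaks. The submitters' processing notes name the build mm9 and the tools MACS2, Picard, SAMtools, Bowtie2, FastQC and Trim Galore. The sources used here give no versions or roles for them and do not say how the shared peak set was made or whether reads were shifted. Starts may be counted from 0 or 1.

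The filterByExpr function, at a count of 10 and a total of 15, left 57504 peaks, and TMM factors scaled the libraries. The quasi-likelihood test of edgeR 4.0.16 in R 4.3.3, with robust estimation and no block, compared Runx3 with control over all peaks, with Benjamini-Hochberg adjustment and a threshold of 0.05. It was tested on simulated data. The SE is the log2 fold change divided by the square root of F, and is approximate. Sums over a window take all its peaks and have no test. DESeq2 1.42.0 and limma 3.58.1 were alternatives, beside other scalings, filters and designs and leaving out each library. Library sets are the division of libraries with the most peaks at least 8-fold apart, with 0.5 CPM added. Counts carry no molecular identifiers, so errors cover counting and library spread only. Every pair of libraries of a group differed by more than sampling noise (lowest chi-square per degree of freedom 1.20). Control 1 stood farthest from its group, at 1.91, 2.61 and 2.49 against controls 2, 3 and 4. The other pairs within a group reached at most 1.48.

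Named peaks were, per window, the 3 of highest level, up to 4 with an unadjusted p under 0.05 and the smallest p in each direction. The windows, members and rules were chosen with earlier results of these data known. Promoter letters are from RefSeq (GRCm38.p6). Gene positions of mm9, and other adhesion genes, were not analysed here.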

Additional observations from a re-analysis of the deposited data

How the results depend on the processing

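With no low-count filter all 45 members were tested, with 0 higher and 0 lower (all peaks 41 and 32). DESeq2 also gave a p to all 45 and called 0 and 0 (all peaks 2 and 1). Among the 28 tested peaks 0 and 0 held under median-ratio factors (all peaks 19 and 22) and no TMM (20 and 19). They also held in limma-voom (5 and 0), with no robust estimation (8 and 10) and the library set as a term (22 and 29). An adjusted p under 0.10 gave 0 and 0 as well. With the total count as a covariate 1 was lower, where all peaks gave 33 higher and 51 lower. Leaving out 1 library gave 0 higher and from 0 to 1 lower, with 1 lower without control 1 (all peaks 73 and 194) or control 4 (37 and 25). Without control 1, 8 members in place of 3 were lower at an unadjusted p under 0.05, and the share of all peaks went from 4.40% to 5.85%. For these shifts the cause was not tested. The summed log2 ratio of Cd44 ran from -0.45 to -0.36 over the leave-one-out values, and was -0.27 without its peaks at an unadjusted p under 0.05, a setting added after the data were seen. That of Itga4 was -0.22 without its most accessible peak. Both follow from which peaks are summed. Leaving out 1 library gave summed ratios of -0.06 to 0.05 at Itga4, on both sides of 0, -0.17 to -0.06 at Itgal and -0.14 to -0.03 at Cxcr4. Direction changed when leaving out a library at the Itgal peak at 134488698 (-0.15 to 0.0867, the latter without control 1) and the Cxcr4 peak at 130487395 (-0.18 to 0.22). The other 12 named peaks kept their direction in every edgeR, DESeq2 and limma-voom fit that tested them, which leaves aside the ratios within a library set. The SE of the 28 log2 fold changes ran from 0.12 to 0.45 with a median of 0.23. It holds counting error and the spread between libraries, and their parts were not separated.

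With the replicate number as a block, 0 member peaks were higher and 0 lower, where all peaks gave 30 higher and 71 lower. In that fit the log2 fold changes of the Cd44 peaks at 102655293 and 102784119 were -0.88 and -0.89 (edgeR adjusted p = 0.16 and 0.092). The labels do not say that a number marks a shared animal or batch. Deviations of same-numbered libraries correlated at 0.13, 0.11 and 0.07, so the numbers were not taken as pairs, although every library of a shared number except control 4, which was closest to Runx3 3, correlated best with its own number. No Runx3 library shares the number of control 2.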

Other observations

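Among the 17 peaks too weak to be tested, the Cxcr4 peak at 130443620 to 130443887 was singled out after its values were seen. It had 4, 5, 4 and 5 reads in controls 1 to 4 and 9, 6 and 6 reads in Runx3 1, 3 and 4, which is 1.65 ± 0.425 CPM (SD, n = 4) and 3.62 ± 1.73 CPM (SD, n = 3). The groups did not overlap, and without the low-count filter the peak had a log2 fold change of 1.09 (edgeR adjusted p = 0.58 and unadjusted p = 0.035). The only library values of 0 reads among the 45 peaks were in control 2 at the Cd44 peak at 102727353 and in Runx3 1 at the Cxcr4 peak at 130519224.

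The windows are cut at round positions. The peaks just inside their edges had means from 2.02 to 52.0 CPM over the 7 libraries, and the first peaks outside had means from 1.36 to 58.9 CPM. The highest of the latter lies 5.70 kb before the Itgal window, at 134403963 to 134404632.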
